A study of Mus musculus with 8 samples.

Results

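MHC class I presentation was examined through 10 genes in peritoneal macrophage RNA of Card9-/- and wild-type (wt) mice: B2m, H2-K1, H2-D1, Tap1, Tap2, Tapbp, Psmb8, Psmb9, Psmb10 and Nlrc5. They were taken by name from 8 one-colour Agilent arrays, where 17 of the 56605 non-control probes carried one of these names, and all 10 were among the 18605 genes tested. The arrays comprised 4 of Card9-/- mice and 4 of wt mice, and all mice, wt included, were given intraperitoneal zymosan, particles of yeast cell wall, at 500 mg/kg for 4 h. The cells of all groups had also been drawn out with 1 ml of 3% thioglycolate, collected 4 days afterwards and allowed to adhere for 3 h, and cell pellets came from 4 or 5 mice per group. No label tells if each RNA came from 1 mouse or from pooled cells, and the spread behind each p-value is that of these samples alone and may be technical. Strain, sex and age of the mice, and the deleted part of Card9, are not given in the sources used here. No array of untreated mice was used here, so each comparison is of the genotypes after zymosan.

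Class I molecules show peptides from inside the cell to CD8 T cells and are read by natural killer cells. Proteins are cut by the proteasome, in which the interferon-induced subunits Psmb8, Psmb9 and Psmb10 can take the place of Psmb5, Psmb6 and Psmb7. The peptides cross into the endoplasmic reticulum through the Tap1-Tap2 transporter, are loaded with the help of tapasin (Tapbp) onto a heavy chain such as H2-K1 or H2-D1 paired with beta-2 microglobulin (B2m), and Nlrc5 is the transcriptional coactivator of most of these genes. In macrophages the pathway is raised by interferon gamma.

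Levels are log2 processed signals minus the 75th percentile of the same array, so that 0 stands for this percentile, and a difference is the mean of Card9-/- minus the mean of wt. Between 47.8% and 52.4% of spots on Card9-/- arrays, and between 51.8% and 56.5% on wt arrays, stood well above background, with 0 saturated spots, and the number of arrays limits the precision. The brighter Card9 probe exceeded background clearly on none of the 4 Card9-/- arrays and on 3 wt arrays, with 3.6 to 11.9 signal units in Card9-/-, and 4.75, 38.2, 1058 and 561 units in wt replicates 1 to 4. The dimmer Card9 probe exceeded background clearly on none of the Card9-/- arrays and on 2 wt arrays. It read 3.70 to 18.5 units in Card9-/-, and 12.7, 20.2, 142 and 41.1 units in wt replicates 1 to 4. At both probes wt replicate 1 lay within the Card9-/- range, so this gene by itself does not bear out its label. At the dimmer probe wt replicate 2 lay just above that range. The macrophage markers described below averaged 0.69 and 0.90 in wt replicates 1 and 2, against 6.35 and 5.05 in wt replicates 3 and 4. The part of macrophage content in the Card9 signal was not tested. Without wt replicate 1 the members had a median difference of -0.45, and without wt replicate 2 one of -0.40, with 0 past the threshold in each. The 5 genes that passed an adjusted p of 0.05 (limma with Benjamini-Hochberg adjustment) included Eif2s3y, Ddx3y and Uty, genes of the Y chromosome that were higher in Card9-/-, and XIST, the X-inactivation RNA, which was lower. XIST was well above background on 4 wt and 0 Card9-/- arrays, and each of these Y genes on 4 Card9-/- and 0 wt arrays. Genotype therefore cannot be told apart from sex in any value below, and the fifth was a transcript without a gene symbol, higher in Card9-/-. Slide 1 held Card9-/- replicate 4 together with the 4 wt arrays, slide 2 held Card9-/- replicates 1 and 3, and slide 3 held Card9-/- replicate 2. Adgre1, the macrophage marker F4/80, chosen after its values were seen, lay between 1.62 and 2.42 on Card9-/- arrays. On wt arrays it was 0.67 and 0.35 in replicates 1 and 2 but 7.72 and 5.92 in replicates 3 and 4, so the wt arrays fell on both sides of Card9-/-.

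The 60-base probes that decide the readings below are shown first, because B2m, H2-K1 and Tap1 each gave different answers from their 2 probes, in overlap or in direction, as did Nlrc5. The B2m probe lies at chr2:121978401-121978460, plus strand, the H2-K1 probes at chr17:34133055-34133114 (probe 1) and chr17:34133984-34134043 (probe 2), minus strand, and the Tap1 probes at chr17:34334022-34334081 (probe 1) and chr17:34330854-34330913 (probe 2), plus strand, all on mm9 as the files give them. Capitals in H2-K1 probe 2 mark the 29 bases that it shares, letter for letter, with probes of H2-L and H2-T23, other class I genes of chromosome 17. The other member probes shared at most 17 bases in a row with a probe of another gene.
B2m: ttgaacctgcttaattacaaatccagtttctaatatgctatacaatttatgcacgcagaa
H2-K1 probe 1: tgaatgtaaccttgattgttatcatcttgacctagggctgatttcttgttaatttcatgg
H2-K1 probe 2: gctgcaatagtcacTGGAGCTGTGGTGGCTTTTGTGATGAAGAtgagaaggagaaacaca
H2-L: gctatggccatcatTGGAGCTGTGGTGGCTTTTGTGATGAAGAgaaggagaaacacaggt
H2-T23: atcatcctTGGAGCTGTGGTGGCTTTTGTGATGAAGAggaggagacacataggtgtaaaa
Tap1 probe 1: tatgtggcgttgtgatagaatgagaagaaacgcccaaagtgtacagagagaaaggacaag
Tap1 probe 2: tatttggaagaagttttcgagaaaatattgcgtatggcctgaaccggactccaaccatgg

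The promoters of the class I chains are shown because they hold the boxes through which Nlrc5 and NF-kB act on this family. RefSeq windows on GRCm38.p6, from 250 bases before to 50 bases after the annotated start, were found for 8 of the 10 genes, Tap2 and Nlrc5 being the others, and for H2-K1 the first of 2 windows was taken. Both strands were searched for CCAAT (Y box), TGACG (core of the X2 box), GAAA and GAAA with any 2 bases between (interferon-stimulated response element), and GGG, any 2 bases, TT, any base and CC (NF-kB site), and matches are in capitals below. The windows lie at chr2:122147437-122147736 (B2m, plus strand), chr17:34000298-34000597 (H2-K1, minus strand) and chr17:35262844-35263143 (H2-D1, plus strand).
B2m promoter: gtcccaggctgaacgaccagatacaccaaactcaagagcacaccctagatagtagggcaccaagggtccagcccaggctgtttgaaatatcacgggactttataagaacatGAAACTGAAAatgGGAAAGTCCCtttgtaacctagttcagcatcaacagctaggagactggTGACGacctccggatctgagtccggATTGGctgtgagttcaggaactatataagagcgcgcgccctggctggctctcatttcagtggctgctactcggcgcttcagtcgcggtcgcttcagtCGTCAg
H2-K1 promoter: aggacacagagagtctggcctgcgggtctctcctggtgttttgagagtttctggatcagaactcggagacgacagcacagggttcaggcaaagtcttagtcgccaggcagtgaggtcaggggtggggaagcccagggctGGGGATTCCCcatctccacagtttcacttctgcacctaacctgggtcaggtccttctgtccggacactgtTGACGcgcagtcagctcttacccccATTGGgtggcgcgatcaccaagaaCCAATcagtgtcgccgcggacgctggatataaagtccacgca
H2-D1 promoter: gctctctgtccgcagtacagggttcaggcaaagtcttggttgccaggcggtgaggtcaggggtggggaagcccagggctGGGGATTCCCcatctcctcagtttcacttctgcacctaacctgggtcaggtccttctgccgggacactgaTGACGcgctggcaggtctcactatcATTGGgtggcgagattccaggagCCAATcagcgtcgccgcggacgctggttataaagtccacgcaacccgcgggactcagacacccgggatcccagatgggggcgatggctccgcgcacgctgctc

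In all 3 windows TGACG was followed by ATTGG, the Y box read on the opposite strand, starting 25 bases further on. Searched on the strand of the gene only, this arrangement was present in 19 of all 32851 promoters (0.0578%). None of the other 5 member windows held it. The spacing is that of these 3 windows and was not among the motifs planned, so the counts are a description and no test. The NF-kB letters stood upstream of the TGACG and ATTGG pair in B2m, H2-K1 and H2-D1. Anywhere in the window and on either strand, 4.79% of all promoters held the NF-kB letters. In B2m these letters lay just after the interferon-stimulated response element, which 3.44% of all promoters held. CCAAT occurred in 6 of the 8 windows against 37.4% of all promoters, and TGACG in 5 against 20.8%. The windows of Tap1 and Psmb9, which are read in opposite directions, overlap by 275 bases, so their CCAAT and TGACG matches are the same letters. The Psmb8 and Psmb10 windows held none of these 4 motifs. A match describes letters and does not show that a factor binds there. Only these exact patterns were searched, so a window without a match may still hold a variant of a box or element.

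Of the 10 genes, 0 passed an adjusted p of 0.05 (limma), as against 0.0269% of all genes tested, and 0 had an unadjusted p under 0.05, which 7.23% of all genes had. The differences of 8 genes were below 0, as were those of 56.3% of all genes, and the median difference was -0.33 against -0.09 over all genes. B2m was the 1 member whose groups did not overlap, being lower on every Card9-/- array than on any wt array. The same held for 3.69% of all genes, and for 15.4% of those with a mean level above 6, the range of B2m. With the slide as a block or within slide 1, values that both rest on Card9-/- replicate 4, the median difference was -0.73 and again 0 members passed.

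**Figure D1:**
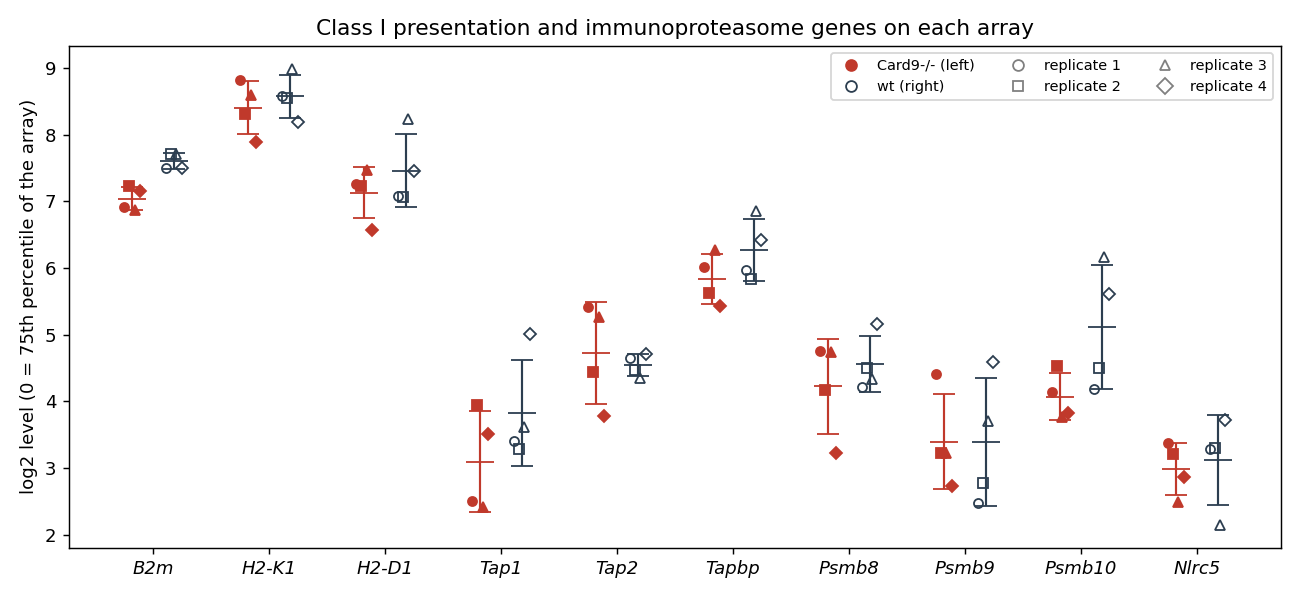
The vertical axis is the log2 level of each of the 10 genes on each array, relative to the array's 75th percentile, with Card9-/- (filled, left) beside wt (open, right), bars for mean and SD (n = 4 each) and symbols for replicate numbers. B2m is the gene whose groups do not overlap, and wt replicates 3 and 4 stand above all other arrays in Psmb10.

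Among the class I chains, B2m, the light chain that every class I molecule needs, had levels of 6.91, 7.23, 6.88 and 7.15 on Card9-/- arrays, against 7.50, 7.72, 7.71 and 7.51 on wt arrays. Its means were 7.04 ± 0.17 in Card9-/- and 7.61 ± 0.12 in wt (SD, n = 4 each). The difference of -0.57 (SE 0.30, 95% interval -1.25 to 0.11) did not pass in limma (adjusted p = 0.753), and the exact two-sided permutation p was 0.0286, the smallest that 70 assignments can give. The difference was -0.46 with the slide as a block, and it was -0.05 with quantile normalization, where the groups overlapped (exact permutation p = 0.686). A second probe that the files name B2m, from a clone sequence, gave 2.40 ± 0.23 in Card9-/- and 2.84 ± 0.91 in wt (SD, n = 4 each), with overlapping groups.

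H2-K1, a classical heavy chain, stood at 8.82, 8.32, 8.60 and 7.89 on Card9-/- arrays, against 8.58, 8.55, 8.99 and 8.20 on wt arrays at probe 1. The groups overlapped throughout, and the difference was -0.17 (SE 0.36, 95% interval -0.98 to 0.63, adjusted p = 0.952 in limma). Probe 2, which carries the run shared with H2-L and H2-T23, gave 5.94, 6.12, 5.88 and 5.49 on Card9-/- arrays, against 6.38, 6.30, 6.87 and 6.55 on wt arrays. Here every Card9-/- array lay below every wt array, with a difference of -0.67 and an exact permutation p of 0.0286. The same held for 3.69% of all genes, and for 15.4% of those with a mean level above 6. The 2 probes of H2-K1 therefore differed in whether the genotypes overlapped. The H2-L probe that holds the same 29 bases, chosen after its values were seen, also had no overlap, with 6.24 ± 0.22 in Card9-/- and 6.92 ± 0.38 in wt (SD, n = 4 each) and a difference of -0.69. The second H2-L probe overlapped (difference -0.41, exact permutation p = 0.286), and how much of each signal comes from which class I gene was not tested. With quantile normalization the difference at H2-K1 probe 2 was -0.05 and the groups overlapped.

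H2-D1, the other classical heavy chain measured, had levels of 7.26, 7.23, 7.47 and 6.57 on Card9-/- arrays, against 7.08, 7.06, 8.24 and 7.46 on wt arrays. Wt replicate 3 was the highest array and Card9-/- replicate 4 the lowest, and the rest lay within a narrow band. The difference was -0.33 (SE 0.40, 95% interval -1.22 to 0.56, adjusted p = 0.904 in limma) and moved to -0.07 without wt replicate 3 and to -0.14 without Card9-/- replicate 4.

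In peptide transport, Tap1, the first chain of the transporter, stood at 2.51, 3.95, 2.42 and 3.50 on Card9-/- arrays, against 3.41, 3.29, 3.61 and 5.01 on wt arrays at probe 1. Wt replicate 4 was the highest, and the difference of -0.74 (SE 0.53, adjusted p = 0.827 in limma) moved to -0.34 without it. Probe 2 turned the direction, with 1.87, 1.5, 1.71 and 0.28 on Card9-/- arrays, against 0.86, 0.56, -1.14 and 1.37 on wt arrays, a difference of 0.93 (exact permutation p = 0.229). Both probes were well above background on all 8 arrays, so the data give no single direction for Tap1. Tap2, the partner chain, had levels of 5.41, 4.45, 5.27 and 3.78 on Card9-/- arrays, against 4.65, 4.47, 4.35 and 4.71 on wt arrays. The Card9-/- arrays lay on both sides of the wt arrays, with an SD of 0.76 against 0.17, and the difference was 0.18 (SE 0.43, adjusted p = 0.959 in limma). Its second probe was well above background on no array. Tapbp, which bridges the transporter and the heavy chain, stood at 6.02, 5.62, 6.27 and 5.43 on Card9-/- arrays, against 5.97, 5.84, 6.86 and 6.43 on wt arrays. As for H2-D1, wt replicate 3 was highest and Card9-/- replicate 4 lowest, and the difference was -0.44 (SE 0.38, adjusted p = 0.860 in limma). It was -0.24 without wt replicate 3.

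Of the immunoproteasome subunits, Psmb10, which takes the place of the trypsin-like subunit Psmb7, had the largest difference of the 10 genes. Its levels were 4.14, 4.53, 3.76 and 3.83 on Card9-/- arrays, against 4.19, 4.51, 6.17 and 5.61 on wt arrays. Wt replicates 1 and 2 lay within the Card9-/- range and wt replicates 3 and 4 above it. These were also the wt arrays with Adgre1 at 7.72 and 5.92, and the part of macrophage content in Psmb10 was not tested. The means were 4.07 ± 0.35 in Card9-/- and 5.12 ± 0.93 in wt (SD, n = 4 each), and the difference of -1.05 (SE 0.49, 95% interval -2.16 to 0.05) did not pass in limma (adjusted p = 0.701) or by the exact permutation test (p = 0.0857). It ranged from -1.36 without wt replicate 1 to -0.70 without wt replicate 3. Psmb8, the chymotrypsin-like subunit that replaces Psmb5, stood at 4.75, 4.18, 4.75 and 3.23 on Card9-/- arrays, against 4.21, 4.51, 4.34 and 5.16 on wt arrays. Card9-/- replicate 4 was the lowest array, and the difference of -0.33 (SE 0.44, adjusted p = 0.913 in limma) was 0.0025 without it. Blocking on slide, a contrast that this same array decides, gave -1.32. Psmb9, the counterpart of Psmb6, had levels of 4.41, 3.22, 3.22 and 2.73 on Card9-/- arrays, against 2.48, 2.77, 3.70 and 4.59 on wt arrays. The groups covered nearly the same range, and the difference was 0.0097 (SE 0.56, 95% interval -1.25 to 1.27, adjusted p = 0.999 in limma).

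The log2 ratio of an inducible subunit to the standard subunit it replaces was compared within arrays, where a shift of the whole array cancels. For Psmb10 over Psmb7 the ratio was 2.31, 2.10, 1.19 and 2.15 on Card9-/- arrays, against 1.56, 1.96, 4.37 and 3.43 on wt arrays, a difference of -0.89. For Psmb9 over Psmb6 the difference was 0.67, and for Psmb8 over Psmb5 it was -0.10. None of the 3 pairs differed beyond the spread of the arrays (exact permutation p of 0.286, 0.343 and 0.943 in that order, and 0.514, 0.514 and 0.943 after Benjamini-Hochberg adjustment over the 3 pairs). The groups overlapped in each, and single arrays moved the differences. Psmb10 over Psmb7 was -1.32 without wt replicate 1 and -0.38 without wt replicate 3, and Psmb9 over Psmb6 was 0.31 without Card9-/- replicate 1 and 1.17 without wt replicate 4. Psmb8 over Psmb5 was -0.24 without wt replicate 3, turned to 0.21 without wt replicate 4, and was -0.83 within slide 1.

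Nlrc5, the coactivator, stood at 3.37, 3.21, 2.50 and 2.86 on Card9-/- arrays, against 3.29, 3.30, 2.15 and 3.73 on wt arrays. Wt replicate 3, the array highest in H2-K1, H2-D1 and Tapbp, was the lowest in Nlrc5. The difference was -0.13 (SE 0.43, 95% interval -1.09 to 0.83, adjusted p = 0.974 in limma), and the second Nlrc5 probe, also well above background on all 8 arrays, turned the direction (0.22) with overlapping groups.

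**Figure D2:**
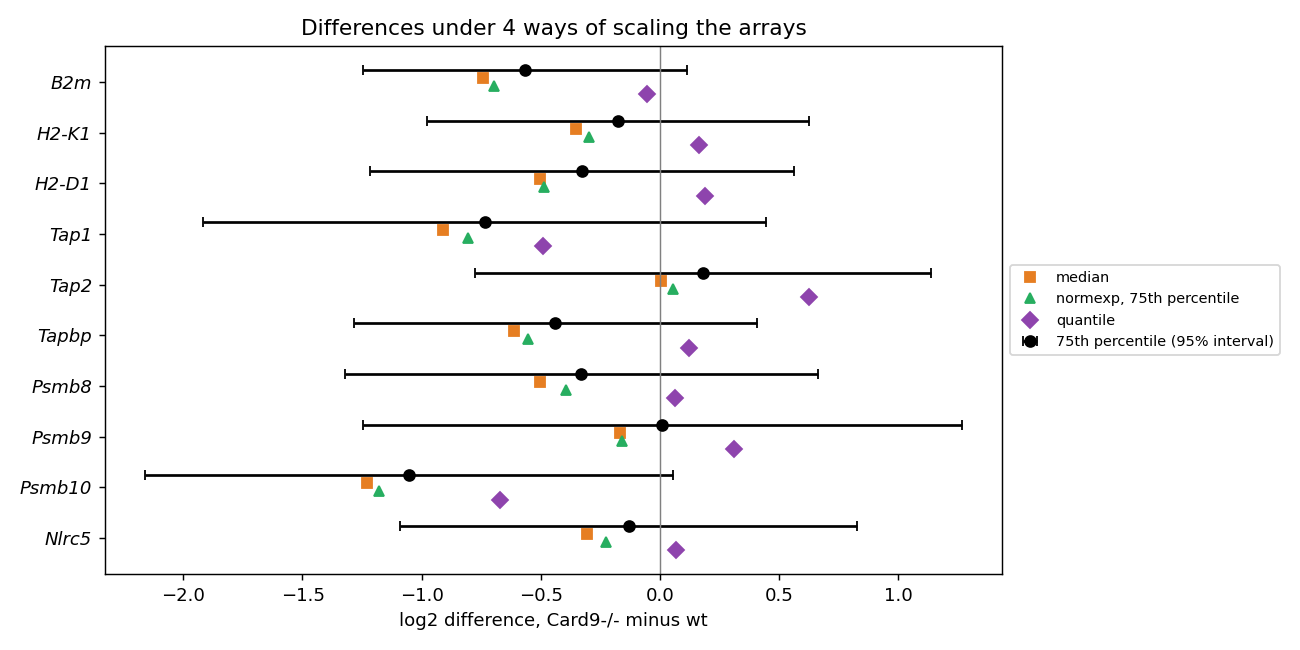
The horizontal axis is the log2 difference, Card9-/- minus wt, of each gene under 4 ways of scaling, with the limma 95% interval for scaling to the 75th percentile. All 10 intervals include 0, and the quantile-normalized values lie to the right of the others.

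Differences below 0 were common among bright genes in general. Of the 655 genes with a mean level above 6, 88.2% had a difference below 0, with a median of -0.44, and in 15.4% every Card9-/- array lay below every wt array. B2m, H2-K1, H2-D1 and Tapbp belong to this range, and their differences of -0.57, -0.17, -0.33 and -0.44 lie around that median. Of the 2715 genes between 3 and 6, the range of the other 6 members, 70.5% had a difference below 0, with a median of -0.24. With quantile normalization the share below 0 was 49.3% above a level of 6 and 40.0% between 3 and 6, and 7 of the 10 members had a difference above 0. H2-K1, H2-D1, Tapbp, Psmb8 and Nlrc5 had the opposite direction under these ways of scaling, and the other 5 kept theirs.

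**Figure D3:**
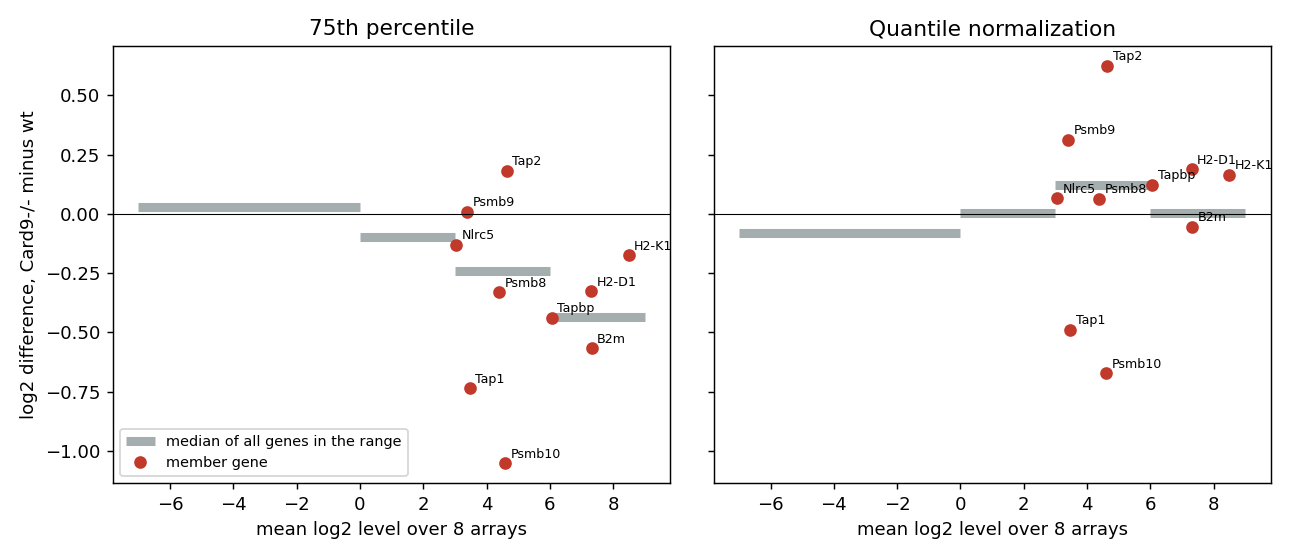
Each point is a member gene by its mean log2 level over 8 arrays (horizontal axis) and its log2 difference, Card9-/- minus wt (vertical axis), with arrays scaled to the 75th percentile (left) or quantile normalized (right). Grey bars are the medians over all genes in 4 ranges of level, from 0.03 below a level of 0 to -0.44 above 6 on the left, and from -0.08 to 0.12 on the right.

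Among genes that work beside the 10 most differences were also below 0, and none passed an adjusted p of 0.05 (limma). Over all genes tested, 56.3% had a difference below 0 (70.5% at mean levels between 3 and 6) and 7.23% an unadjusted p under 0.05. Of 9 loading chaperones and trimming peptidases 7 had a difference below 0 (median -0.32), those with the smallest p being the oxidoreductase Pdia3 of the loading complex (-0.80, SE 0.43, adjusted p = 0.760), the cytosolic peptidase Npepps (-0.48) and the chaperone Canx (-0.35), with 0 at an unadjusted p under 0.05. Of 14 standard core subunits 13 were below 0 (median -0.33), with 0 at an unadjusted p under 0.05. Psma6, with the smallest p of the list, stood at 4.83, 4.82, 4.46 and 4.2 on Card9-/- arrays, against 4.99, 5.35, 5.50 and 5.14 on wt arrays. Its groups did not overlap, as for 3.69% of all genes in the same direction and 6.92% of those at mean levels between 3 and 6 (difference -0.67, SE 0.33, adjusted p = 0.726 in limma). Psma7 (-0.75) and Psmb6 (-0.66) came next by p, and Psmb5 and Psmb7 differed by -0.23 and -0.16. Of 8 measured proteasome activators and assembly chaperones 6 were below 0 (median -0.43), among them the assembly chaperones Psmg2 (-1.11, SE 0.42, adjusted p = 0.614), Psmg4 (-0.84) and Psmg3 (-0.81), of which Psmg2 alone had an unadjusted p under 0.05. Psme1, an activator subunit induced by interferon gamma and chosen after its values were seen, differed by 0.09. Its partner Psme2 was not measured. Of the probes named Psme2b, also chosen after their values were seen, 1 was lower on every Card9-/- array than on any wt array (-0.97). The same held for 15.4% of genes with a mean level above 6. The other Psme2b probe overlapped (-0.05). With quantile normalization these 3 medians were -0.03, -0.04 and -0.08 (loading genes, core subunits, activators), with 5 of 9, 9 of 14 and 4 of 8 genes below 0.

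Of 18 other class I and class I-like genes 15 had a difference below 0 (median -0.26), against 56.3% of all genes. None passed, and 2 had an unadjusted p under 0.05 with a lower value in Card9-/-, as had 4.59% of all genes. H2-M2, a nonclassical heavy chain, had levels of 2.66, 3.35, 2.78 and 2.99 on Card9-/- arrays, against 3.70, 3.66, 4.49 and 4.34 on wt arrays (difference -1.10, SE 0.36, adjusted p = 0.560 in limma). H2-T23, which encodes Qa-1, a ligand of the inhibitory CD94-NKG2A receptor of natural killer cells, stood at 6.11, 6.38, 5.82 and 6.0 on Card9-/- arrays, against 6.55, 6.50, 7.37 and 7.08 on wt arrays (difference -0.80, SE 0.35, adjusted p = 0.679 in limma). Neither gene's groups overlapped, as for 3.69% of all genes in the same direction. That share was 6.92% at mean levels between 3 and 6, the range of H2-M2, and 15.4% above 6, the range of H2-T23. The H2-T23 probe is the one that shares 29 bases with H2-K1 probe 2. H2-Bl differed by -1.08 with overlapping groups. With quantile normalization 11 of the 18 genes were below 0 (median -0.14).

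The transcription factors of class I genes had a median difference of -0.28, with 8 of 12 below 0, against 56.3% of all genes, and 0 passed or had an unadjusted p under 0.05. Irf2, an interferon regulatory factor, differed by -0.85, the NF-kB subunit gene Nfkb1 by -0.45, and Rfxank, a subunit of the X-box-binding RFX complex, by 0.75, with adjusted p between 0.804 and 0.844. Irf1, which activates these promoters after interferon gamma and was chosen after its values were seen, stood at 5.17, 5.06, 4.99 and 4.86 on Card9-/- arrays, against 4.55, 4.87, 7.17 and 6.19 on wt arrays. Wt replicates 3 and 4 were thus the highest arrays in Irf1, as in Psmb10. The quantile-normalized median of the 12 factors was -0.10.

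The interferon gamma genes were the list with a median above 0 (0.31, with 12 of 19 above 0, 0 passing and 1, Ifng, at an unadjusted p under 0.05). Over all genes 56.3% were below 0, and 2.64% had an unadjusted p under 0.05 with a higher value in Card9-/-. Ifng itself, the cytokine that induces the pathway, had levels of 1.16, 0.58, 0.20 and 0.03 on Card9-/- arrays, against -2.58, -1.05, -2.70 and -0.30 on wt arrays. Every Card9-/- array lay above every wt array, as for 1.53% of all genes and 2.12% of those with a mean level below 0, the range of Ifng. The difference of 2.15 (SE 0.59) did not pass in limma (adjusted p = 0.532). Ifng is made mainly by T cells and natural killer cells, whose markers were also higher in Card9-/-, and their part in its level was not tested. The median of the list stayed above 0 with normexp (0.16), median scaling (0.13) and quantile normalization (0.60). Irf8, a transcription factor of macrophages and B cells, differed by 0.76 and the receptor chain Ifngr1 by 0.83, with overlapping groups. The median of the 10 members was -0.33, and 0.10 with quantile normalization, and the difference between these lists was not tested.

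**Figure D4:**
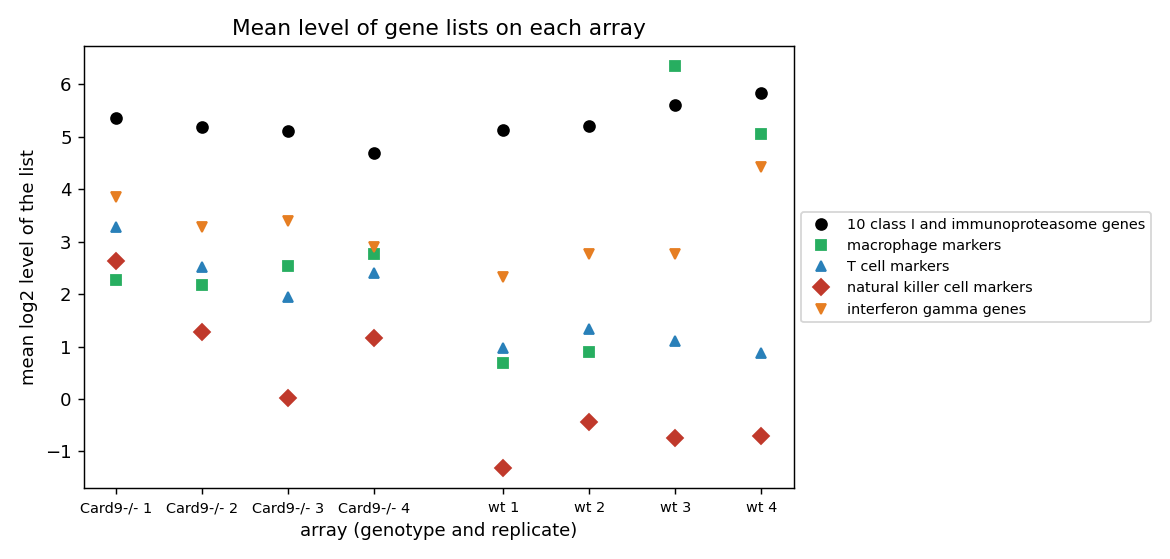
The vertical axis is the mean log2 level of each gene list on each array, with Card9-/- replicates on the left and wt replicates on the right. The 10 class I and immunoproteasome genes lie between 4.70 and 5.36 on Card9-/- arrays and between 5.14 and 5.84 on wt arrays, while macrophage markers span 0.69 to 6.35 among wt arrays.

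Markers of other cell types differed between the arrays. Of 10 T cell markers 10 were above 0 and 8 had an unadjusted p under 0.05 with a higher value in Card9-/-, as had 2.64% of all genes, and of 9 measured natural killer cell markers 9 were above 0 and 8 reached that p. With quantile normalization 8 and 7 markers of these lists reached it, and with median scaling 6 of each. Mean levels were 2.54 ± 0.55 in Card9-/- and 1.08 ± 0.20 in wt for T cells, and 1.27 ± 1.06 in Card9-/- and -0.80 ± 0.37 in wt for natural killer cells (SD, n = 4 each). The log2 of the summed level of the T cell list was 6.59 to 7.47 in Card9-/- and 5.87 to 6.94 in wt, and that of the natural killer list 4.72 to 7.69 in Card9-/- and 2.98 to 4.48 in wt. Of 9 measured macrophage markers 7 were below 0, and the list averaged 2.18 to 2.76 on Card9-/- arrays, 0.69 and 0.90 in wt replicates 1 and 2, and 6.35 and 5.05 in wt replicates 3 and 4. The mean of the 10 members was lowest in Card9-/- replicate 4 (4.70), where the macrophage list was not low (2.76), and highest in wt replicates 4 (5.84) and 3 (5.61). Every marker tested in these 3 lists was well above background on at least 1 array of each genotype. Red cell markers (4 measured) averaged 6.82, 4.67, 4.73 and 8.61 on Card9-/- arrays, against 5.66, 3.85, 5.47 and 1.25 on wt arrays. They were thus highest in Card9-/- replicate 4, where the members were lowest, and lowest in wt replicate 4, where the members were highest. Card9-/- replicate 1, with red cell markers at 6.82, had the highest member mean of its genotype (5.36). Over the 8 arrays the member mean had Pearson coefficients of 0.63 with the macrophage list and -0.73 with the red cell list. Those with the T cell and natural killer cell lists were -0.44 and -0.30. B cell markers averaged 3.39 ± 0.36 in Card9-/- and 2.89 ± 0.61 in wt, and neutrophil markers 1.80 ± 1.66 in Card9-/- and 2.03 ± 1.49 in wt (SD, n = 4 each). Lymphocytes carry class I genes too, and the part of cell makeup in the members' values was not tested. In such bulk RNA, fewer cells of a type and less RNA per cell cannot be told apart.

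The genes whose levels over the 8 arrays most resembled the mean of the 10 members were Pja2, Hnrnpul2, 1810013L24Rik, Nrbf2, Rmdn2 and Tagap, out of 18585 compared, with Pearson coefficients of 0.981 to 0.973. These are given as a description of 8 arrays, of which wt replicates 1 and 2 lay very close together (0.985 over all genes). None of the 6 passed (adjusted p of 0.774 to 0.872 in limma), and their differences lay between -0.77 and -0.37.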

How the data were processed

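RNA of peritoneal macrophages (0.2 µg per array, Cy3) was measured on 8 one-colour arrays. The deposited intensity values are processed signals of Agilent Feature Extraction (version 10.7.1.1 per the submitters' processing notes), with background subtracted, spatial trends removed and no scaling between arrays, per the file headers. In the authors' series matrix the values behave as log2 and every column has equal quantiles, with the scale not stated. Its rows are aligned with their identifiers up to row 49670 of 56745, and it served as an alternative. For each array, the 75th percentile over non-control spots was subtracted from the log2 signal. Outlier spots were set to missing, spots of a probe averaged, probes kept where well above background on 3 of 4 arrays of a genotype (28169), and the probe with the highest mean stood for a gene. Gene symbols came from accessions, current symbols or synonyms in the RefSeq table (GRCm38.p6), or else from the files. Genotypes were compared with limma 3.58.1 (R 4.3.3), intercept and genotype, Benjamini-Hochberg over all genes at 0.05, and by exact permutation for single probes. The fit was tested on simulated data. The result for 1 further promoter motif is not reported here. The members and gene lists were chosen with earlier results of these data known, and the ranges of brightness, subunit ratios, H2-L and Psme2b after values were seen. The spacing of TGACG and ATTGG was not among the planned motifs. All members were named, up to 4 genes past the threshold of other lists (else the 3 smallest p), the 6 genes most like the members, Card9, and the standard subunits Psmb5, Psmb6 and Psmb7. Alternatives changed background correction, scaling, the filter, probe choice, slide or replicate blocks, array weights and single arrays.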

Additional observations from a re-analysis of the deposited data

How the results depend on the processing

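Under the 20 alternatives, 0 members passed the threshold in any (limma; up to 2 at an unadjusted p under 0.05, with normexp). B2m and Psmb10 kept a difference below 0 in all of them, with ranges of -0.74 to -0.05 and -1.36 to -0.29. The median difference of the members was 0.095 with quantile normalization, 0.061 in the series matrix (9 members, Tap1 not among its aligned rows) and -0.73 with the slide as a block or within slide 1, and -0.47 to -0.11 leaving out single arrays. Quantile normalization turned H2-D1 (0.19), H2-K1 (0.17), Nlrc5 (0.066), Psmb8 (0.065) and Tapbp (0.12), and the matrix turned the same 5 (0.14, 0.17, 0.061, 0.030 and 0.038). The mean of a gene's probes turned Tap1 (0.096) and Nlrc5 (0.046), and array weights turned H2-D1 (0.17). Psmb9 was -0.16 with normexp, -0.17 with median scaling, -0.24 with wt replicates 1 and 2 averaged and -0.65 with slide as a block or within slide 1, where Tap2 was -0.76. Leaving out single arrays gave -0.33 to 0.41 for Psmb9, -0.045 to 0.50 for Tap2, -0.45 to 0.074 for Nlrc5 and -0.50 to 0.0025 for Psmb8. The median over all genes moved from -0.088 to -0.26 with median scaling and to 0.031 with normexp. Of all genes, 5 passed, and 5 or 6 when single arrays were left out. There were 0 with probes well above background on all arrays, 0 with the slide as a block, 0 within slide 1, 3 with the replicate block and 1171 with array weights, whose estimation did not converge. Same-numbered arrays deviated together with correlations of -0.28 to 0.25, and these values cannot tell if the replicate numbers pair the samples. Each of the 5 genes that passed had a probe well above background on 0 arrays of 1 genotype, so the filter on all arrays left those probes out. The slide contrasts rest on 1 Card9-/- array, and otherwise the cause was not tested. With 4 arrays per genotype and SEs of 0.30 to 0.56, each member's interval includes 0 and differences of that order cannot be shown. No member had an array standing apart by Dixon's test in the 20 sets of 4 arrays.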
